A study of Mus musculus with 12 samples.

Results

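The genes described here are the nuclear receptor family of the mouse, 46 listed genes of the steroid, thyroid, retinoid, PPAR and orphan receptor groups, chosen by name and read in every library. All 46 were found among the 38924 genes of the count tables, and 37 of them passed the filter on low counts and were tested among 16953 genes. The study traced cells with a reporter allele, ROSAmTmG, in which Cre recombinase switches a cell and its descendants to GFP. All mice were on C57BL/6 and carried this reporter together with 1 of 2 drivers, Ucp1-iCre (Ucp1 encodes the uncoupling protein of brown fat) or Myf5-Cre (Myf5 is a factor of muscle and brown fat precursors). Sorted cells gave 6 groups of 2 libraries: Ucp1-iCre GFP-positive mammary myoepithelial cells, Ucp1-iCre GFP-negative mammary myoepithelial cells, Myf5-Cre GFP-positive mammary myoepithelial cells, Myf5-Cre GFP-negative mammary myoepithelial cells, Ucp1-iCre GFP-positive brown adipocytes and Myf5-Cre GFP-positive brown adipocytes. The mammary cells were sorted as lineage-negative, CD24-positive and CD29-high at day 10 of lactation, and the brown adipocytes came from virgin females of 8 weeks. Mammary gland, lactation and, for GFP-negative cells, absence of the label thus go together in each comparison with brown adipocytes and cannot be told apart. GFP reports that the driver was active at some time in a cell's ancestry, not that it is active now.

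Nuclear receptors are transcription factors that bind DNA through a pair of zinc fingers, and most change their activity when a small lipid-soluble ligand enters the ligand-binding domain. Steroid receptors act mainly as homodimers, while the retinoic acid, thyroid hormone, vitamin D, PPAR and LXR receptors pair with a retinoid X receptor. Brown fat is a known site of PPAR, ERR, thyroid hormone and REV-ERB action, and the mammary gland depends on estrogen, progesterone and glucocorticoid receptors. The NR4A receptors have no known classical ligand pocket and are induced within minutes by many stimuli, so that they are counted among the immediate-early genes.

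Library totals ranged from 11027738 to 32956480 counts, and levels are given as CPM, a gene's counts scaled to a common library size with TMM factors. The labels do not say that the 2 libraries of a group are separate animals, so p-values measure the spread between these libraries, which may be technical. The 2 Ucp1 GFP-positive myoepithelial libraries differed from the rest. In them 10909 and 10560 genes were detected, while 19794 and 19213 were detected in the Ucp1 GFP-negative cells, and their levels correlated at r = 0.731 across genes, against 0.879 to 0.99 in the other groups. Of 2770 genes with 1 to 5 CPM in the Ucp1 GFP-negative cells, 49.4% had no count in either GFP-positive library. The marker check followed the labels in part. The summed level of 10 basal myoepithelial markers was 1554 and 3386 CPM in Ucp1 GFP-positive, 11220 and 12940 CPM in Ucp1 GFP-negative, 3352 and 5060 CPM in Myf5 GFP-positive and 9725 and 18670 CPM in Myf5 GFP-negative myoepithelial cells, against 124 to 200.3 CPM in Ucp1 and 25.2 to 33.9 CPM in Myf5 brown adipocytes. Krt5, Krt14 and Krt17 had no count in any brown adipocyte library. Ucp1 itself was at 0 in the 4 GFP-positive myoepithelial libraries and at 950 and 3312 CPM in the Ucp1 and 12573 and 16436 CPM in the Myf5 brown adipocyte libraries. Luminal and milk markers summed to between 11550 and 80120 CPM in every mammary library. Endothelial markers summed to 4969 and 7097 CPM in the Ucp1 GFP-positive myoepithelial libraries, above the basal sum of each. In the other mammary libraries the basal sum was above the endothelial one. In these bulk samples fewer cells of a type and less RNA per cell cannot be told apart.

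Of the 46 receptors, 16 reached 1 CPM in all 12 libraries and 3 (Hnf4g, Nr0b1 and Nr0b2) had no count in any. Besides these 3, Esr2, Nr1i2, Rorb, Nr2e1, Nr2e3 and Nr5a1 were too low to be tested, with at most 2.6 CPM in any library. Per kb of exon, the receptor with the highest mean level in mammary cells was Nr4a1, the immediate-early receptor also called NUR77, at 149.7 to 434 CPM per kb in the 8 libraries. Pparg, the master regulator of fat cell differentiation, came next at 63.6 to 232 CPM per kb, and the ranges of the pair overlapped. In brown adipocytes Pparg had the highest mean, at 98.7 to 147.7 CPM per kb over 4 libraries, followed on average by the oxysterol receptor gene Nr1h3 (LXR alpha) at 34.5 to 88.2 CPM per kb, the COUP-related Nr2f6 at 29.5 to 102.8 CPM per kb and Nr4a1 at 19.3 to 142.2 CPM per kb. The ranges of these last 3 overlapped each other, and those of Nr2f6 and Nr4a1 overlapped that of Pparg. In Ucp1 brown adipocyte replicate 1 Nr4a1, at 142.2 CPM per kb, was above Pparg at 107.7 CPM per kb. Nr4a1 had the next highest mean after Pparg in the Ucp1 and Nr2f6 in the Myf5 brown adipocytes. Exons of Ocel1 on the other strand cover 54.4% of the Nr2f6 exon length, and the part of Ocel1 reads in the Nr2f6 level was not tested.

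**Figure D1:**
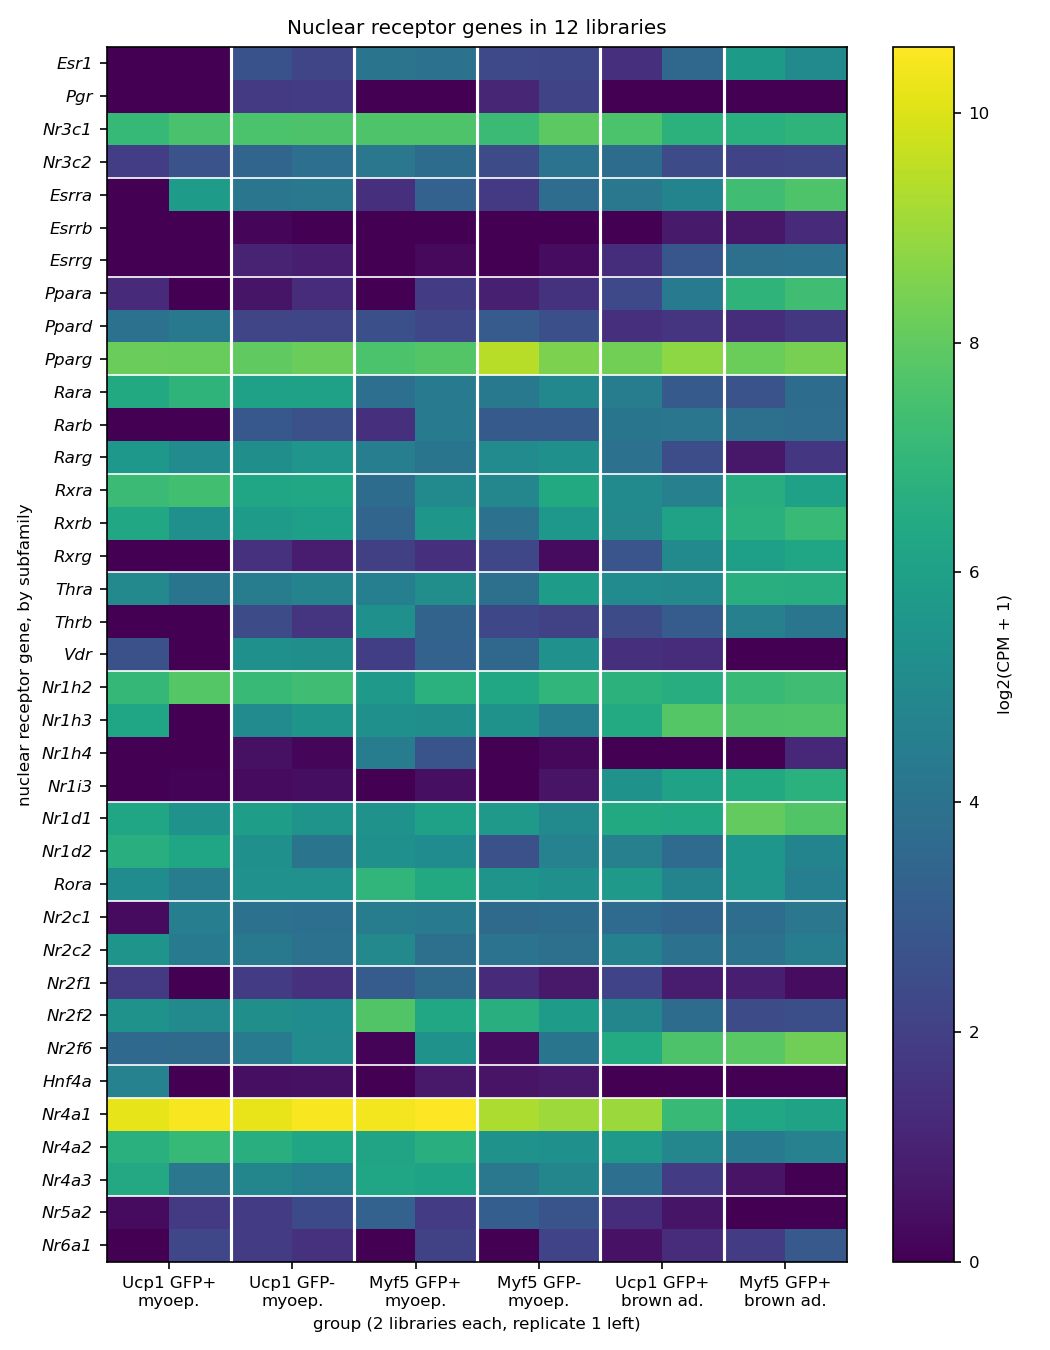
Levels of the 37 tested nuclear receptor genes, as log2(CPM + 1), in rows by subfamily and in columns by group with 2 libraries each. Nr4a1 and Pparg were bright in the mammary libraries, Nr1i3, Ppara, Rxrg and Nr2f6 were brighter in brown adipocytes, and several rows were dark in the Ucp1 GFP-positive myoepithelial libraries alone.

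The comparison of GFP-negative myoepithelial cells with brown adipocytes, averaged over both driver lines, asks how the receptor set of the mammary cells differs from that of brown fat. Of the 37 tested receptors 13 passed the edgeR quasi-likelihood test at an adjusted p of 0.05, 8 higher in the myoepithelial cells and 5 lower. Over all genes 26.6% were called, 14.6% higher and 12% lower. The share of receptors called was 35.1%, and their median log2 difference was 0.02, against 0.35 over all genes. The receptors higher in GFP-negative myoepithelial cells were Nr4a1, Nr4a3, Rarg, Rara, Vdr, Pgr, Nr2f2 and Nr5a2. Those lower were Nr1i3, Nr1d1, Rxrg, Ppara and Esrrg. In 9 receptors all 4 myoepithelial libraries lay above all 4 brown adipocyte libraries and in 8 all lay below, against 19.4% and 18% of all genes. The call held without any single library for 4 of the 13, namely Nr4a1, Rarg, Nr2f2 and Nr1i3. The count of 13 was 8 and 6 without Ucp1 GFP-negative replicate 1 and 2, 7 and 8 without Myf5 brown adipocyte replicate 1 and 2, and 5 without Ucp1 brown adipocyte replicate 2. Single calls ended most often for Ppara, which lost its call without any 1 of these 8 compared libraries (adjusted p up to 0.173), and for Pgr and Esrrg, each lost in 7 of 12 such fits.

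Of the called receptors Nr4a1 had the largest difference in mean CPM. It had 1197 and 1412 CPM in Ucp1 and 613 and 525 CPM in Myf5 GFP-negative myoepithelial cells, against 499 and 139 CPM in Ucp1 and 79.0 and 67.8 CPM in Myf5 brown adipocytes. All myoepithelial libraries were higher than all brown adipocyte libraries, and the log2 difference was 2.49 ± 0.40 (SE, edgeR adjusted p = 0.00246). Nr4a3, also called NOR1, had 28.1 and 22.7 CPM in Ucp1 and 17.8 and 27.7 CPM in Myf5 GFP-negative cells, against 13.4 and 2.55 CPM in Ucp1 and 0.488 and 0 CPM in Myf5 brown adipocytes. It rose by 4.13 ± 0.94 on the log2 scale (adjusted p = 0.0119), a call that was lost without Ucp1 brown adipocyte replicate 2 (adjusted p = 0.0621). Nr4a2, or NURR1, had 99.2 and 72.3 CPM in Ucp1 and 41.7 and 38.7 CPM in Myf5 GFP-negative cells, against 51.5 and 28.6 CPM in Ucp1 and 20.4 and 24.6 CPM in Myf5 brown adipocytes, so that its groups overlapped, and it was not called. Their promoters are shown because the 3 genes share a feature that the levels did not use. Each of the 3 stretches of 250 bases before the RefSeq start (build GRCm38.p6) held 4 copies of TGACG, the half-site of the cAMP response element, counted on both strands. Capitals mark these half-sites as TGACG or, on the other strand, CGTCA. The Nr4a1 stretch is chr15:101266596-101266845 (plus strand), within the annotated gene but in no annotated exon, the Nr4a2 stretch is chr2:57124004-57124253 (minus strand), and the Nr4a3 stretch, chr4:48045055-48045152 (plus strand), is printed up to the first annotated exon and so holds 3 of its 4 copies.
Nr4a1: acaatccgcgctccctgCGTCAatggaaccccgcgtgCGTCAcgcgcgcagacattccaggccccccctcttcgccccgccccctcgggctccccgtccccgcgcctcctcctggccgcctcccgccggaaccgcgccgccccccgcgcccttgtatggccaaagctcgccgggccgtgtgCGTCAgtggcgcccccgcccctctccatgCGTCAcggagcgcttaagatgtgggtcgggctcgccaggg
Nr4a2: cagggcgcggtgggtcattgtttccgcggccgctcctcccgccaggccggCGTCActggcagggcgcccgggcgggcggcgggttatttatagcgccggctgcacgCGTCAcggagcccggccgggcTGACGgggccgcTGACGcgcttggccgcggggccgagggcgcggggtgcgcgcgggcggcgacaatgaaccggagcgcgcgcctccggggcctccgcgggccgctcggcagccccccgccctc
Nr4a3: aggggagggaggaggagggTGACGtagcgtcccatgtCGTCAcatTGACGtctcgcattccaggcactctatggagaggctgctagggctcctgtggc
Among 32851 mouse promoters from RefSeq, 17.8% held at least 1 copy in their 250 bases, and 45 (0.137%) held at least 4. The 3 genes are shown for holding 4 copies, so setting them beside this share is no test. Among the 63 promoters of the 42 receptors found there, 13 held at least 1 copy (20.6%), close to the share of all promoters. The whole palindrome TGACGTCA, which contains 2 overlapping half-sites, was in none of the 3 NR4A stretches and in 1.55% of all promoters. Searched as well were CACGTG (E-box) and AGGTCA (nuclear receptor half-site), held by 7.94% and 17.5% of receptor promoters, against 6.02% and 14.0% of all promoters. A match of letters is a description and not a measured binding site.

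A list of 11 other immediate-early genes followed in the same comparison, with 7 of 11 tested members higher and none lower. The shares of all genes were 14.6% and 12%. The median log2 difference of the 11 was 2.04, against 0.35 over all genes. Fosb, an AP-1 subunit, averaged 399 ± 107 CPM in the GFP-negative myoepithelial and 36.4 ± 46.01 CPM in the brown adipocyte libraries (SD, n = 4 each), with adjusted p = 0.00272. Egr2, a zinc-finger factor, averaged 121 ± 21.6 and 27.2 ± 22.0 CPM in the same order (adjusted p = 0.000622). The summed level of the list was 23920 and 24140 CPM in Ucp1 and 12760 and 19070 CPM in Myf5 GFP-negative cells, against 19350 and 12420 CPM in Ucp1 and 2879 and 3099 CPM in Myf5 brown adipocytes. Of the Ucp1 brown adipocyte libraries 1 thus lay inside and 1 below the range of the GFP-negative cells. These genes are also known to be induced while tissue is taken apart for sorting, and the part of that step in the NR4A levels was not tested.

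Retinoid receptors differed by isotype. Rarg, the retinoic acid receptor gamma known from epithelia, had 37.1 and 44.6 CPM in Ucp1 and 33.7 and 38.5 CPM in Myf5 GFP-negative myoepithelial cells, against 14.9 and 4.68 CPM in Ucp1 and 0.610 and 2.20 CPM in Myf5 brown adipocytes. The groups did not overlap, and the log2 difference was 3.36 ± 0.60 (adjusted p = 0.004). Rara, the widely expressed retinoic acid receptor alpha, had 66.1 and 66.3 CPM in Ucp1 and 18.6 and 29.6 CPM in Myf5 GFP-negative cells, against 21.3 and 7.06 CPM in Ucp1 and 5.62 and 12.2 CPM in Myf5 brown adipocytes. It was called higher by 1.83 ± 0.49 on the log2 scale (adjusted p = 0.022) although 1 brown adipocyte library lay inside the myoepithelial range, and the call was lost without any of 5 single libraries, Ucp1 GFP-negative replicates 1 and 2, Myf5 GFP-negative replicate 2, Myf5 brown adipocyte replicate 1 and Ucp1 brown adipocyte replicate 2 (adjusted p up to 0.0956). Rarb, which retinoic acid itself induces in many cells, had 6.43 and 5.11 CPM in Ucp1 and 7.06 and 6.92 CPM in Myf5 GFP-negative cells, against 16.5 and 16.9 CPM in Ucp1 and 13.8 and 12.8 CPM in Myf5 brown adipocytes. Its groups did not overlap, but it was not called (adjusted p = 0.278), and 34.1% of its exons overlap Top2b on the other strand. Rxrg, the retinoid X receptor gamma known from muscle, had 1.80 and 0.795 CPM in Ucp1 and 3.77 and 0.243 CPM in Myf5 GFP-negative cells, against 5.88 and 31.0 CPM in Ucp1 and 61.2 and 74.9 CPM in Myf5 brown adipocytes. It fell by 4.45 ± 1.01 on the log2 scale (adjusted p = 0.0141), with no overlap, and the call was lost without Ucp1 GFP-negative replicate 1, replicate 2 or Ucp1 brown adipocyte replicate 2 (adjusted p up to 0.0839). Rxra and Rxrb, the broadly expressed partners, were not called.

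Genes that handle or answer to retinoic acid were higher in the GFP-negative myoepithelial cells in 4 of 7 tested cases and lower in none. The shares of all genes were 14.6% and 12%. The median log2 difference of the 7 was 6.42 as fitted and 4.98 with a member absent from brown adipocytes set at its bound. Stra6, a retinol importer, averaged 2.34 ± 0.86 CPM in the GFP-negative myoepithelial cells (SD, n = 4) and had no count in the 4 brown adipocyte libraries, at least 31.5-fold higher. Such a bound divides the mean by the CPM that 3 counts would give in the summed libraries without a count, and covers counting error only. Cyp26b1, which degrades retinoic acid, averaged 6.34 ± 7.01 CPM in GFP-negative myoepithelial cells and 0.429 ± 0.565 CPM in brown adipocytes (SD, n = 4 each, adjusted p = 0.0154), with overlapping libraries.

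The isotype shares show this without any scaling between libraries. Of the summed CPM per kb of Rara, Rarb and Rarg, Rarb made up 3.64% to 9.93% in the 4 GFP-negative myoepithelial libraries and 27.2% to 64.7% in the 4 brown adipocyte libraries. Rarg made up 34.7% to 58.6% in the same GFP-negative libraries and 3.54% to 30.4% in brown adipocytes. Rxrg held 0.379% to 15.4% of the RXR sum in GFP-negative cells and 16% to 41.1% in brown adipocytes, without overlap but by a narrow margin. Rxra held 47.0% to 55.2% and 12.3% to 35.6% in the same order. Ranges of these 4 isotypes were thus separate between the cell types, while Rara, at 31.5% to 60.4% and 27.3% to 48.6%, was not.

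**Figure D2:**
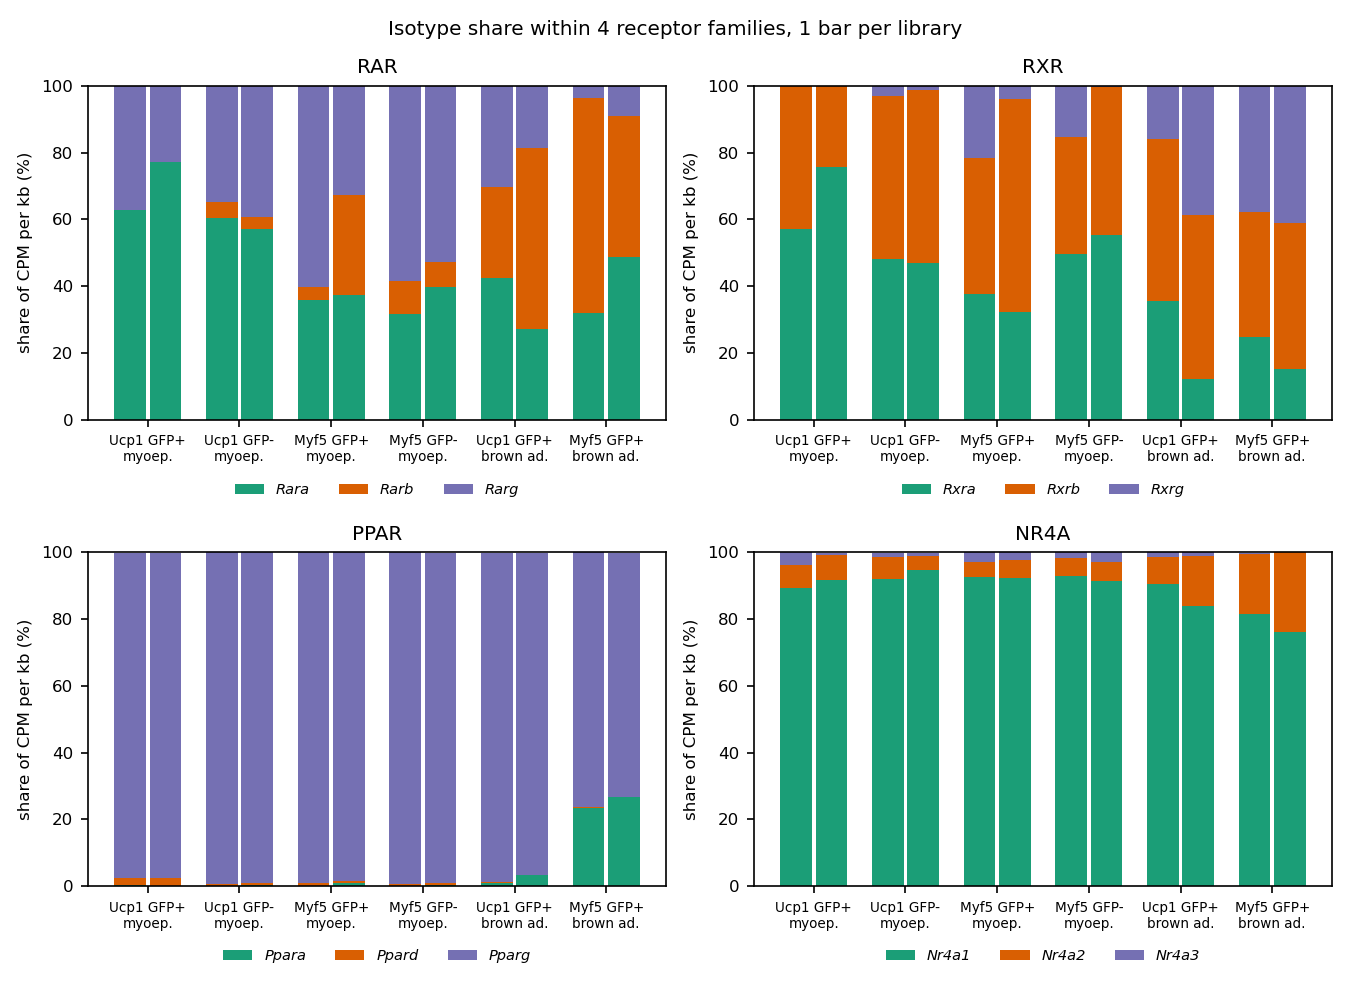
Share of each isotype in the summed CPM per kb of its family (RAR, RXR, PPAR and NR4A), in percent, with 1 bar per library and 2 per group. Rarb and Rxrg took larger shares in the brown adipocyte than in the GFP-negative myoepithelial libraries, Pparg took at least 73.2% of the PPAR sum in all 12 libraries, and Nr4a1 at least 76.1% of the NR4A sum.

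Of the 3 PPAR and 3 ERR genes, Ppara and Esrrg were called, both lower in the myoepithelial cells. Ppara, which drives fatty acid oxidation, had 0.511 and 1.56 CPM in Ucp1 and 0.888 and 1.94 CPM in Myf5 GFP-negative myoepithelial cells, against 3.99 and 18.8 CPM in Ucp1 and 116 and 158 CPM in Myf5 brown adipocytes. The log2 difference was -5.02 ± 1.55 (adjusted p = 0.04), without overlap, and the Myf5 brown adipocyte libraries were the highest. Esrrg, an orphan receptor of oxidative tissues, had 1.02 and 0.856 CPM in Ucp1 and 0 and 0.283 CPM in Myf5 GFP-negative cells, against 1.58 and 6.12 CPM in Ucp1 and 14.2 and 14.4 CPM in Myf5 brown adipocytes. It fell by 4.31 ± 1.31 on the log2 scale (adjusted p = 0.0421), again without overlap. Its relative Esrra had 16.9 and 18.0 CPM in Ucp1 and 2.49 and 12.8 CPM in Myf5 GFP-negative cells, against 17.7 and 26.0 CPM in Ucp1 and 160 and 203 CPM in Myf5 brown adipocytes. Esrra overlapped between the groups and was not called.

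Pparg itself was not called. It had 253 and 281 CPM in Ucp1 and 685 and 359 CPM in Myf5 GFP-negative myoepithelial cells, against 318 and 436 CPM in Ucp1 and 292 and 336 CPM in Myf5 brown adipocytes, and the ranges overlapped. Of 14 known PPAR targets tested, 9 were lower in GFP-negative myoepithelial cells and 1 higher, against 12% and 14.6% of all genes. Their median log2 difference was -3.14. Acadm, an enzyme of fatty acid oxidation, averaged 70.7 ± 24.0 and 2072 ± 1213 CPM in GFP-negative myoepithelial cells and brown adipocytes (SD, n = 4 each, adjusted p = 0.000208). Adipoq, the adipocyte hormone adiponectin, averaged 1.11 ± 1.41 and 921 ± 540 CPM in the same order (adjusted p = 0.000337). These targets are also general markers of fat cells. Of 9 general adipocyte markers 7 were lower, but that list shares several genes, Adipoq among them, with the PPAR targets. The counts of both lists are thus not separate. Among 21 coregulators tested, 4 were higher and 2 lower, against 14.6% and 12% of all genes. The median log2 difference of the 21 was 0.73, against 0.35 over all genes. The lower ones were Ppargc1a, the PPAR coactivator of thermogenesis, at 0.682 ± 0.260 and 57.7 ± 42.6 CPM (adjusted p = 0.0283), and its relative Ppargc1b at 6.40 ± 3.40 and 91.4 ± 76.1 CPM (adjusted p = 0.0244), each with GFP-negative myoepithelial cells first.

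Vdr, the vitamin D receptor, had 38.3 and 37.9 CPM in Ucp1 and 10.9 and 39.3 CPM in Myf5 GFP-negative myoepithelial cells, against 1.68 and 1.53 CPM in Ucp1 and no count in Myf5 brown adipocytes. Its mean was 31.6 ± 13.8 CPM in GFP-negative cells and 0.803 ± 0.929 CPM in brown adipocytes (SD, n = 4 each, adjusted p = 0.017), with no overlap. The call was lost without Myf5 GFP-negative replicate 2 and without any 1 of the 4 brown adipocyte libraries (adjusted p up to 0.0987). Thra and Thrb, the thyroid hormone receptors, were not called. Thra had 21.2 and 25.3 CPM in Ucp1 and 14.2 and 54.6 CPM in Myf5 GFP-negative cells, against 33.7 and 30.4 CPM in Ucp1 and 102 and 96.0 CPM in Myf5 brown adipocytes. Of 4 tested thyroid hormone targets 2 were lower in the GFP-negative myoepithelial cells and none higher, against 12% and 14.6% of all genes. Thrsp, a lipogenic gene among the lower ones, averaged 357 ± 172 CPM there, against 7255 ± 2511 CPM in brown adipocytes (adjusted p = 0.000273). The median log2 difference of the 4 was -2.25.

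Among sterol and xenobiotic receptors Nr1i3, the constitutive androstane receptor best known from liver, was the receptor with the smallest adjusted p among those lower. It had 0.241 and 0.306 CPM in Ucp1 and 0 and 0.486 CPM in Myf5 GFP-negative myoepithelial cells, against 41.1 and 67.02 CPM in Ucp1 and 84.0 and 107 CPM in Myf5 brown adipocytes. The log2 difference was -8.09 ± 1.34 (adjusted p = 0.00293), without overlap. Exons of Tomm40l, a mitochondrial import gene on the other strand, cover 74.9% of its exon length. Tomm40l had 5.92 and 6.67 CPM in Ucp1 and 4.70 and 4.21 CPM in Myf5 GFP-negative cells, against 56.9 and 86.2 CPM in Ucp1 and 101 and 145 CPM in Myf5 brown adipocytes. Because the strand setting of the counting is not given in the sources used here, reads of the 2 genes cannot be told apart. Nr1h3 and Nr2f6 were each lower in all 4 GFP-negative myoepithelial libraries than in all 4 brown adipocyte libraries, without being called. Nr1h3 averaged 35.4 ± 9.6 CPM in GFP-negative myoepithelial cells and 176 ± 60.9 CPM in brown adipocytes (adjusted p = 0.204). Nr2f6 averaged 17.6 ± 13.6 and 206 ± 90.9 CPM in the same order (adjusted p = 0.0839), and 54.4% of its exons overlap Ocel1 on the other strand. Ocel1 had 17.3 and 23.2 CPM in Ucp1 and 4.3 and 14.25 CPM in Myf5 GFP-negative cells. In brown adipocytes Ocel1 had 81.0 and 146.5 CPM in the Ucp1 and 162.5 and 227.4 CPM in the Myf5 line. Nr1h2, the other LXR, held 58.4% to 80.4% of the LXR sum per kb in GFP-negative myoepithelial cells and 24.6% to 48.4% in brown adipocytes. Of 8 LXR targets tested, 1 was higher in the GFP-negative myoepithelial cells and 2 were lower, against 14.6% and 12% of all genes. The higher one was Mylip, which degrades the LDL receptor. The lower ones were Scd1, a fatty acid desaturase, and Lpcat3, a phospholipid remodelling enzyme. The median log2 difference of the 8 was -0.72. Mylip had 128 and 119.6 CPM in Ucp1 and 121 and 144 CPM in Myf5 GFP-negative cells, against 125 and 118 CPM in Ucp1 and 4.76 and 4.40 CPM in Myf5 brown adipocytes. Its libraries thus overlapped in the Ucp1 line, and it was called between the brown adipocytes of the 2 lines (adjusted p = 0.0139).

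Of the clock receptors Nr1d1 (REV-ERB alpha), a repressor in the circadian loop, was lower in GFP-negative myoepithelial cells. It had 58.8 and 43.4 CPM in Ucp1 and 52.0 and 32.5 CPM in Myf5 GFP-negative cells, against 85.6 and 79.1 CPM in Ucp1 and 264 and 205 CPM in Myf5 brown adipocytes. The log2 difference was -1.58 ± 0.34 (adjusted p = 0.00997), without overlap, and it was lost without Ucp1 GFP-negative replicate 2 (adjusted p = 0.0709). Its exons share 8.55% of their length with Thra on the other strand. Nr1d2 and Rora were not called. Of 14 clock partner genes 1 was higher and 1 lower, against 14.6% and 12% of all genes. Per1, a clock repressor that glucocorticoids also induce, averaged 43.6 ± 9.1 and 8.83 ± 3.15 CPM in GFP-negative myoepithelial cells and brown adipocytes (SD, n = 4 each, adjusted p = 0.00526). Dbp, a clock output factor, averaged 2.37 ± 1.04 and 44.0 ± 39.8 CPM in the same order (adjusted p = 0.0476). The median log2 difference of the 14 was 0.11, and the hour of sampling is not given in the sources used here.

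Among steroid receptors, Pgr, the progesterone receptor, was detected only in GFP-negative myoepithelial cells. It had 2.50 and 2.54 CPM in Ucp1 and 1.198 and 3.52 CPM in Myf5 GFP-negative cells and no count in the 4 brown adipocyte libraries or the 4 GFP-positive myoepithelial libraries. The difference from brown adipocytes was at least 32.8-fold (adjusted p = 0.0156). Progesterone receptor is known as a gene of luminal mammary cells, and luminal and milk markers summed to 72490 and 80120 CPM in Ucp1 and 74350 and 41970 CPM in Myf5 GFP-negative cells, against at most 2.42 CPM in brown adipocytes. The part of luminal cells in this result was not tested. Esr1, the estrogen receptor alpha, had 5.35 and 3.58 CPM in Ucp1 and 4.08 and 3.89 CPM in Myf5 GFP-negative cells, against 1.68 and 10.97 CPM in Ucp1 and 53.0 and 31.4 CPM in Myf5 brown adipocytes. It overlapped and was not called. Of 6 tested estrogen and progesterone targets 1 was higher (Wnt4, a progesterone-induced ligand) and 1 lower (Pdzk1), against 14.6% and 12% of all genes. The median log2 difference of the 6 was 1.08.

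Corticoid receptors were not called. Nr3c1, the glucocorticoid receptor, had 191 and 194 CPM in Ucp1 and 146 and 237 CPM in Myf5 GFP-negative myoepithelial cells, against 188 and 109 CPM in Ucp1 and 105 and 117 CPM in Myf5 brown adipocytes (adjusted p = 0.179). It made up at least 90.8% of the corticoid receptor sum per kb in all 12 libraries, the rest being the mineralocorticoid receptor gene Nr3c2. Of 10 glucocorticoid targets 4 were higher in GFP-negative myoepithelial cells and none lower, against 14.6% and 12% of all genes. Their median log2 difference was 1.34. The list shares Per1 with the clock list and other genes with the immediate-early and thyroid hormone lists, so these counts are not separate. Sgk1, a salt and stress kinase, averaged 2519 ± 1205 and 744 ± 811 CPM in GFP-negative myoepithelial cells and brown adipocytes (SD, n = 4 each, adjusted p = 0.00474). By line it averaged 1933 ± 39.8 CPM in Ucp1 GFP-negative cells, against 1423 ± 354 CPM in Ucp1 brown adipocytes, and 3104 ± 1729 CPM in Myf5 GFP-negative cells, against 64.9 ± 66.1 CPM in Myf5 brown adipocytes (SD, n = 2 each). The brown adipocytes of the 2 lines differed in Sgk1 as well (adjusted p = 0.0415). Tsc22d3, the glucocorticoid-induced leucine zipper, averaged 213 ± 125 CPM in GFP-negative myoepithelial cells and 60.9 ± 35.8 CPM in brown adipocytes of both lines (adjusted p = 0.00719).

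Of the remaining orphan receptors 2 were called. Nr2f2, or COUP-TFII, a factor of mesenchyme and venous endothelium, had 37.5 and 34.7 CPM in Ucp1 and 101 and 55.7 CPM in Myf5 GFP-negative myoepithelial cells, against 28.1 and 12.2 CPM in Ucp1 and 4.39 and 4.86 CPM in Myf5 brown adipocytes. It was higher by 2.46 ± 0.46 on the log2 scale (adjusted p = 0.00523), without overlap. Summed endothelial markers were 5216 and 5115 CPM in Ucp1 and 4948 and 4496 CPM in Myf5 GFP-negative cells, against 3611 and 2052 CPM in Ucp1 and 17.0 and 376 CPM in Myf5 brown adipocytes, and fibroblast markers were 490 to 2956 CPM in GFP-negative cells against 37.4 to 89.7 CPM in brown adipocytes. The part of these cells in the Nr2f2 level was not tested. Nr5a2, or LRH-1, had 2.53 and 4.25 CPM in Ucp1 and 7.99 and 5.71 CPM in Myf5 GFP-negative cells, against 1.58 and 0.510 CPM in Ucp1 and no count in Myf5 brown adipocytes. Its groups did not overlap (adjusted p = 0.014), and the call was lost without Ucp1 GFP-negative replicate 2, Myf5 brown adipocyte replicate 1 or 2, or Ucp1 brown adipocyte replicate 2 (adjusted p up to 0.0672).

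**Figure D3:**
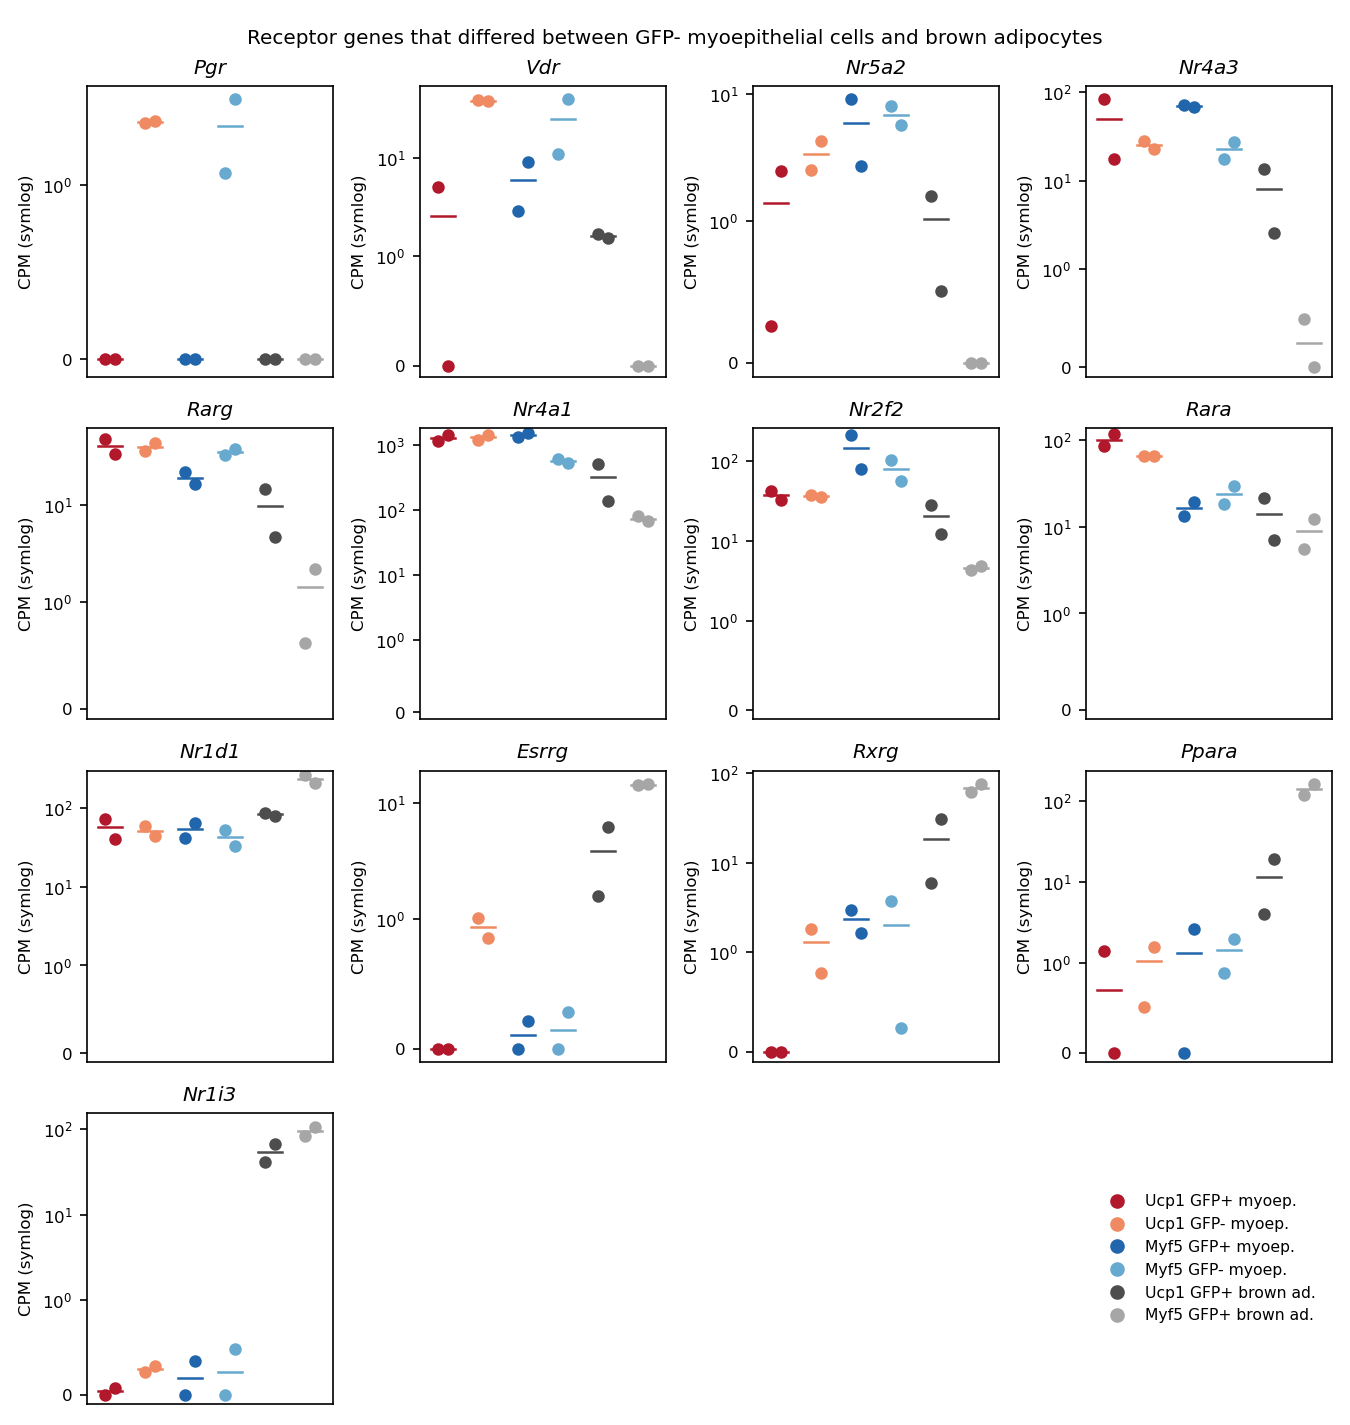
CPM per library (points, on a scale that is linear below 1 and logarithmic above) and group means (lines) of the 13 receptors called between GFP-negative myoepithelial cells and brown adipocytes. Of the 13 genes 12 kept all 4 GFP-negative myoepithelial libraries apart from all 4 brown adipocyte libraries, with Rara as the exception.

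The 13 receptors were also fitted within each driver line. All 13 had the same sign in both lines. They were chosen by the mean of these same within-line differences, so a shared sign is partly set by that choice and is no separate check. Within the Ucp1 line alone none of the 13 passed the test, with the smallest adjusted p at 0.0524 for Nr1i3, while within the Myf5 line 9 did. For Nr2f2 the log2 difference was 0.84 ± 0.62 in the Ucp1 line (adjusted p = 0.559) and 4.08 ± 0.71 in the Myf5 line (adjusted p = 0.00555). For Nr1d1 it was -0.69 ± 0.48 in the Ucp1 line (adjusted p = 0.522) and -2.47 ± 0.50 in the Myf5 line (adjusted p = 0.0105). The difference was larger in the Myf5 line for 11 of the 13. Whether the 2 lines differ in these differences was not tested. Brown adipocyte markers summed to 2931 and 8628 CPM in Ucp1 and to 20730 and 25710 CPM in Myf5 brown adipocytes.

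**Figure D4:**
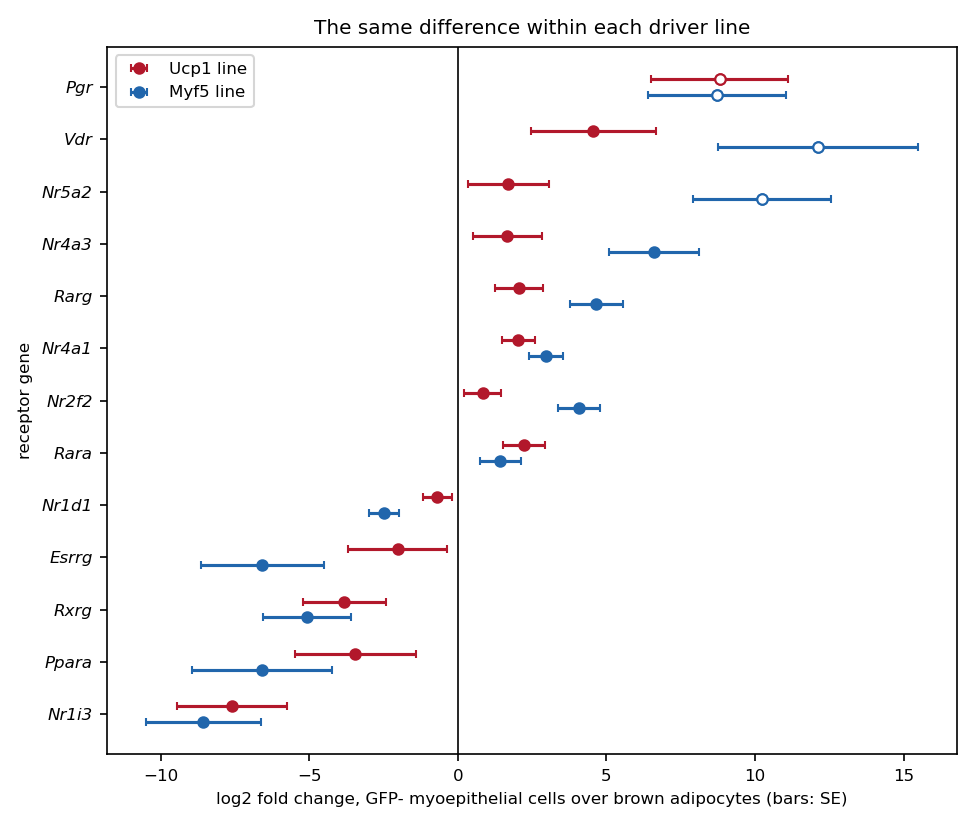
Log2 fold change (points, with SE bars) of GFP-negative myoepithelial cells over brown adipocytes within the Ucp1 line and within the Myf5 line for the 13 called receptors. Open points mark a line whose 2 brown adipocyte libraries had no count, where the fitted value depends on the prior count. All points of a gene lay on the same side of 0 in both lines, which the choice of genes by the mean of both lines partly sets. In the Ucp1 line Nr2f2 (0.84) and Nr1d1 (-0.69) lay nearest to 0.

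GFP-positive myoepithelial cells were also set against the GFP-positive brown adipocytes of the same line, which share the brown adipocyte libraries with the comparison above. In the Ucp1 line 11 of 37 receptors were called, 5 higher and 6 lower, against 27.8% of all genes, 5.34% higher and 22.5% lower. In the Myf5 line 9 were called, 6 higher and 3 lower, against 19.8% of all genes, 10.9% higher and 8.84% lower. Both myoepithelial libraries lay above both brown adipocyte libraries for 10 receptors in the Ucp1 line (16.6% of all genes) and 15 in the Myf5 line (33.1%), and below them for 11 (41.1%) and 15 (33.8%) in the same order. Nr4a1, the highest of them, had 1160 and 1406 CPM in Ucp1 GFP-positive myoepithelial cells, against 499 and 139 CPM in Ucp1 brown adipocytes, and rose by 2.01 ± 0.55 on the log2 scale (adjusted p = 0.0259). In the Myf5 line it had 1329 and 1524 CPM in GFP-positive myoepithelial cells, against 79.0 and 67.8 CPM in brown adipocytes, and rose by 4.28 ± 0.61 (adjusted p = 0.00232). Nr4a2 rose in both lines, by 1.58 ± 0.47 in the Ucp1 line (adjusted p = 0.0356) and by 1.90 ± 0.48 in the Myf5 line (adjusted p = 0.0246), and Nr1i3 fell in both, by 10.2 ± 2.1 (adjusted p = 0.00795) and 8.93 ± 1.96 (adjusted p = 0.0144) in the same order.

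In the Ucp1 line Ppard, the ubiquitous PPAR, had 14.6 and 18.4 CPM in GFP-positive myoepithelial cells, against 1.79 and 2.13 CPM in brown adipocytes (adjusted p = 0.0291). Rara had 85.5 and 118 CPM in the same GFP-positive cells, against 21.3 and 7.06 CPM in brown adipocytes (adjusted p = 0.0181). Rxra had 146 and 164 CPM, against 31.1 and 23.5 CPM in brown adipocytes (adjusted p = 0.0211). Of the 6 lower ones, 5 had no count in either GFP-positive library, with bounds of at least 144-fold for Esr1, 87.8-fold for Esrrg, 381-fold for Rarb, 420-fold for Rxrg and 134-fold for Thrb. These zeros lie in the 2 libraries with few detected genes. Fitted on these 2 groups alone, none of the 11 was called, nor was any gene. The count of 11 was 7 without Ucp1 GFP-negative replicate 2 and 5 without Ucp1 brown adipocyte replicate 2. Esr1, Rarb, Rxrg, Thrb and Nr1i3 held their calls without any single library. Rara lost its call without Ucp1 brown adipocyte replicate 2 (adjusted p = 0.111), Rxra without either Ucp1 brown adipocyte library (up to 0.133), Esrrg without that replicate 2 or Ucp1 GFP-negative replicate 2 (up to 0.0841), and Nr4a1 without Ucp1 GFP-positive replicate 2, either Ucp1 GFP-negative library or Ucp1 brown adipocyte replicate 2 (up to 0.0612). Ppard lost it without either Ucp1 GFP-negative library or any of the 4 brown adipocyte libraries (adjusted p up to 0.126), and Nr4a2 in 9 of 12 such fits (up to 0.197).

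In the Myf5 line the other called receptors were Rarg, Nr2f2, Nr4a3 and Nr5a2 (higher) and Nr1d1 and Rxrg (lower). Nr2f2 had 207 and 78.7 CPM in GFP-positive myoepithelial cells, against 4.39 and 4.86 CPM in brown adipocytes, a rise of 4.95 ± 0.74 on the log2 scale (adjusted p = 0.00271). Nr4a3 had 72.6 and 68.4 CPM in the GFP-positive cells, against 0.488 and 0 CPM in brown adipocytes (8.24 ± 1.60, adjusted p = 0.0085). Rarg had 22.0 and 16.5 CPM, against 0.610 and 2.20 CPM in brown adipocytes (3.76 ± 0.86, adjusted p = 0.0172). Rxrg had 2.99 and 1.65 CPM, against 61.2 and 74.9 CPM in brown adipocytes (-4.87 ± 1.46, adjusted p = 0.0493). The calls of Nr4a1, Nr4a3 and Nr2f2 held without any single library, while the count of 9 was 4 without Myf5 GFP-positive myoepithelial replicate 1, and 3 and 4 without Myf5 brown adipocyte replicate 1 and 2. The count was 18 without either or both Ucp1 GFP-positive myoepithelial libraries, which take no part in the contrast but share its estimate of the spread. Nr1d1, Nr1i3 and Nr5a2 lost their calls without Myf5 GFP-positive replicate 1 or either Myf5 brown adipocyte library (adjusted p up to 0.107), and Rarg without Myf5 GFP-positive replicate 1 or Myf5 brown adipocyte replicate 1 (up to 0.123). Nr4a2 lost it without Myf5 GFP-positive replicate 2, either Ucp1 GFP-negative library or either Myf5 brown adipocyte library (adjusted p up to 0.161), and Rxrg in 8 of 12 such fits (up to 0.17).

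In the lists around the receptors, the same comparisons called 7 of 11 immediate-early genes higher in the Myf5 line and 3 of 11 in the Ucp1 line, and no member of this list lower. The shares of all genes were 10.9% higher and 8.84% lower in the Myf5 line, and 5.34% and 22.5% in the Ucp1 line. PPAR targets were lower in 10 of 14 cases in the Myf5 line (8.84% of all genes) and 5 of 14 in the Ucp1 line (22.5%). Retinoic acid targets were higher in 4 of 7 cases in the Myf5 line, with Crabp2, a retinoic acid carrier, at 22.5 ± 2.9 CPM in GFP-positive myoepithelial cells and no count in Myf5 brown adipocytes (n = 2 each, at least 143-fold). None of the 7 was called in the Ucp1 line. Glucocorticoid targets were higher in 5 of 10 cases in the Myf5 line. In the Ucp1 line 1 was higher (Per1) and 3 were lower, against 5.34% and 22.5% of all genes. The lower ones were Zbtb16, a transcription factor, and the metallothioneins Mt1 and Mt2. Markers of other cells moved with the Myf5 line results. Fibroblast markers summed to 18160 and 9858 CPM in Myf5 GFP-positive myoepithelial cells, against 89.7 and 49.7 CPM in Myf5 brown adipocytes, with 7 of 9 called higher. Pericyte markers summed to 2934 and 2703 CPM in the GFP-positive cells, against 176 and 184 CPM in brown adipocytes, with 4 of 7 called higher. The part of these cells in the receptor and target levels of the Myf5 line, Nr2f2 and Crabp2 included, was not tested.

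Within the Ucp1 line, GFP-positive against GFP-negative myoepithelial cells asks whether the cells with a Ucp1-iCre history carry another receptor set than their neighbours. Of 37 tested receptors 5 were called and all 5 were lower, against 14.3% of all genes called, 14% lower and 0.277% higher. The median log2 difference was -0.27 for the receptors and -0.69 for all genes. Each of the 5 had no count in either GFP-positive library. Esr1 had 5.35 and 3.58 CPM in the GFP-negative cells, so that the difference was at least 102-fold (adjusted p = 0.00397). Rarb had 6.43 and 5.11 CPM there (at least 132-fold, adjusted p = 0.00566), and Thrb, the thyroid hormone receptor beta, had 4.54 and 2.05 CPM (at least 75.1-fold, adjusted p = 0.00453). Pgr, at 2.50 and 2.54 CPM (at least 57.4-fold, adjusted p = 0.0432), and Rxrg, at 1.80 and 0.795 CPM (at least 29.6-fold, adjusted p = 0.0282), were called less firmly. A count of 0 allowed up to 0.134 and 0.0910 CPM in the 2 GFP-positive libraries on raw totals. These floors and the fold bounds cover counting error only, not the loss of low genes in these libraries. Without 1 library at a time Esr1, Rarb and Thrb kept their calls. Pgr lost its call in 10 of 12 such fits (adjusted p up to 0.178). Rxrg lost it in 4, without Ucp1 GFP-positive replicate 2, Ucp1 GFP-negative replicate 1 or 2, or Myf5 brown adipocyte replicate 2 (adjusted p up to 0.0832). The count of 5 was 3 without Ucp1 GFP-negative replicate 1 or 2 or Myf5 brown adipocyte replicate 2.

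All 5 lay at 1.3 to 5.77 CPM on average in the GFP-negative cells, where zeros were common in these libraries. Of the 9 receptors with a mean of 1 to 5 CPM there, 4 had no count in either GFP-positive library, against 49.4% of all genes at that level, and 1 of 1 at 5 to 10 CPM, against 29.6%. Of the 22 receptors at 10 CPM or more, none was at 0 in both. The part of this loss of low genes in the 5 results was not tested. The 2 GFP-positive libraries also disagreed with each other. Nr1h3 had 73.4 and 0.0243 CPM, Esrra 0 and 55.1 CPM, Nr2c1, an orphan receptor also called TR2, 0.257 and 21.8 CPM, and Hnf4a, a receptor of liver and gut, 24.8 and 0 CPM in replicates 1 and 2. In the GFP-negative cells the replicates of these genes lay close together, at 33.4 and 43.8 CPM for Nr1h3 and 16.9 and 18.0 CPM for Esrra.

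**Figure D5:**
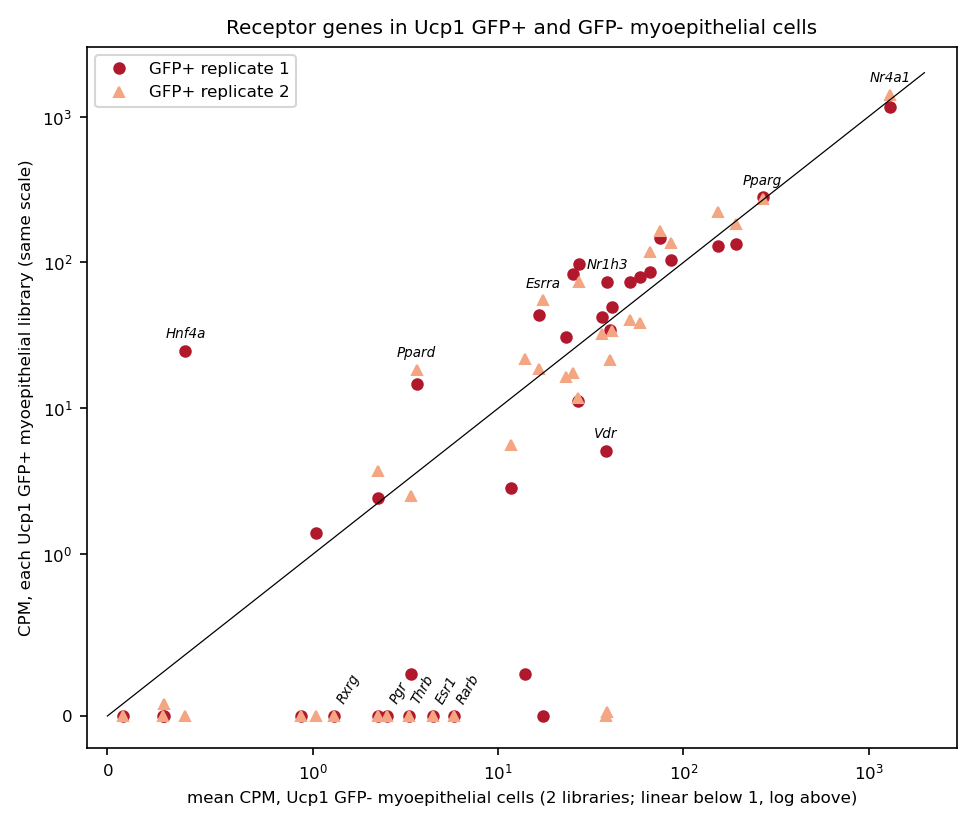
CPM of the 37 tested receptors in each Ucp1 GFP-positive myoepithelial library (vertical) against their mean in Ucp1 GFP-negative cells (horizontal), both on scales that are linear below 1 and logarithmic above, with a line of equality. Esr1, Rarb, Thrb, Pgr and Rxrg lay at 0 in both libraries at mean levels of at most 5.77 CPM in GFP-negative cells, while Nr4a1 and Pparg lay on the line.

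Higher levels in the Ucp1 GFP-positive cells did not pass the test. In 6 receptors both GFP-positive libraries lay above both GFP-negative ones, against 11.8% of all genes, and in 14 both lay below, against 48.1%. Ppard had 14.6 and 18.4 CPM in GFP-positive cells, against 3.67 and 3.58 CPM in GFP-negative cells (adjusted p = 0.112). Rxra had 146 and 164 CPM in GFP-positive cells, against 73.1 and 76.8 CPM in GFP-negative cells (adjusted p = 0.3). Vdr had 5.11 and 0 CPM in GFP-positive cells, against 38.3 and 37.9 CPM in GFP-negative cells (adjusted p = 0.235). Of the most abundant receptors, Nr4a1 had 1160 and 1406 CPM in GFP-positive cells, against 1197 and 1412 CPM in GFP-negative cells, and Pparg 281 and 274 CPM, against 253 and 281 CPM in GFP-negative cells.

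Around these receptors, 5 of 20 tested genes of ligand transport and metabolism were lower in the Ucp1 GFP-positive cells and none higher. The shares of all genes were 14% lower and 0.277% higher. Aldh1a1, which makes retinoic acid, had no count in the GFP-positive cells and averaged 15.5 ± 4.7 CPM in the GFP-negative cells (n = 2 each, at least 353-fold, adjusted p = 0.00134). Of all genes with 10 to 20 CPM in the GFP-negative cells, 13.7% had no count in either GFP-positive library. Of the targets, Hr, a thyroid hormone-responsive corepressor, averaged 0.0184 ± 0.0260 and 10.5 ± 2.4 CPM (adjusted p = 0.00293) and Igfbp4, an estrogen-responsive gene, 23.5 ± 10.7 and 271 ± 12.1 CPM (adjusted p = 0.0224), each with GFP-positive cells first. Per2, a clock repressor, was the only called member of the clock list and was higher, at 94.7 ± 56.3 and 19.3 ± 0.6 CPM (adjusted p = 0.0496). Fibroblast markers summed to 683 and 202 CPM in GFP-positive and 2956 and 2368 CPM in GFP-negative cells, and immune markers to 513 to 631 CPM in GFP-positive and 1277 to 1376 CPM in GFP-negative cells. Luminal and milk markers summed to 14360 and 15790 CPM in GFP-positive and 72490 and 80120 CPM in GFP-negative cells. Endothelial markers did not fall in this way, at 4969 and 7097 CPM in GFP-positive and 5216 and 5115 CPM in GFP-negative cells. The part of these cells in the receptor results was not tested.

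Within the Myf5 line no receptor was called between GFP-positive and GFP-negative myoepithelial cells, nor was any of the 16953 genes (0% of all genes). At an unadjusted p under 0.05 there were 7 receptors and 1573 genes by edgeR, while DESeq2 called 800 genes with 2 receptors (Thrb and Nr1h4) and limma-voom 567 genes with 2 receptors (Pgr and Nr1h4). Nr1h4, the bile acid receptor FXR, had 21.05 and 5.74 CPM in Myf5 GFP-positive cells, against 0 and 0.162 CPM in Myf5 GFP-negative cells, and at most 1.28 CPM in the other 8 libraries (edgeR adjusted p = 0.403). Thrb had 38.4 and 9.29 CPM in GFP-positive cells, against 3.86 and 3.16 CPM in GFP-negative cells (adjusted p = 0.437). Pgr had no count in GFP-positive cells and 1.198 and 3.52 CPM in GFP-negative cells (adjusted p = 0.327). In 10 receptors both GFP-positive libraries lay above both GFP-negative ones and in 5 below, against 14.5% and 20.2% of all genes.

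Other receptors with separate values in the Myf5 line were Rora, a clock activator, at 123 and 83.8 CPM in GFP-positive cells, against 43.2 and 38.6 CPM in GFP-negative cells, and Nr4a1 at 1329 and 1524 CPM, against 613 and 525 CPM in GFP-negative cells. Pparg had 188 and 215 CPM in GFP-positive cells, against 685 and 359 CPM in GFP-negative cells. None of the 3 passed the test (adjusted p of 0.508, 0.482 and 0.338). The summed fibroblast markers were 18160 and 9858 CPM in Myf5 GFP-positive cells, against 845 and 490 CPM in GFP-negative cells, with all 9 markers higher in both libraries, and the basal markers were 3352 and 5060 CPM, against 9725 and 18670 CPM in GFP-negative cells. Pericyte markers summed to 2934 and 2703 CPM in GFP-positive cells, against 670 and 428 CPM in GFP-negative cells, with all 7 higher in both libraries. Endothelial markers summed to 1436 and 1771 CPM in GFP-positive cells, against 4948 and 4496 CPM in GFP-negative cells, with all 7 lower, and luminal and milk markers to 25810 and 11550 CPM, against 74350 and 41970 CPM in GFP-negative cells, with 8 of 10 lower without overlap. No marker of these lists passed the test. The part of these cells in the receptor levels was not tested.

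The effect of the GFP label differed between the lines for 3 receptors, by the test of the difference itself in edgeR. Over all genes 11% were called, 10.7% lower and 0.283% higher. The 3 were Esr1 (adjusted p = 0.00488), Rarb (adjusted p = 0.00989) and Thrb (adjusted p = 0.00438), each with a label effect that was lower in the Ucp1 line than in the Myf5 line. Esr1 had no count in Ucp1 GFP-positive cells, against 5.35 and 3.58 CPM in Ucp1 GFP-negative cells, while it had 16.005 and 14.96 CPM in Myf5 GFP-positive cells, against 4.08 and 3.89 CPM in Myf5 GFP-negative cells. Thrb had no count in Ucp1 GFP-positive cells and 38.4 and 9.29 CPM in Myf5 GFP-positive cells. Rarb had no count in Ucp1 GFP-positive cells, and 1.74 and 18.8 CPM in Myf5 GFP-positive cells, which lay on both sides of the 7.06 and 6.92 CPM of the Myf5 GFP-negative cells. The Rarb call was lost without either Myf5 GFP-negative library (adjusted p up to 0.0585), while those of Esr1 and Thrb held without any single library. The count of 3 was 7 and 6 without Ucp1 GFP-positive replicate 1 and 2.

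Ucp1 and Myf5 lines were last compared within a cell type. Between the GFP-negative myoepithelial cells no receptor and no gene was called by edgeR (0% of all genes), with 2 receptors and 604 genes at an unadjusted p under 0.05 and no receptor called by DESeq2, which called 55 genes, or by limma-voom. The 2 receptors were Pparg, at 253 and 281 CPM in the Ucp1 and 685 and 359 CPM in the Myf5 line, and Nr4a2, at 99.2 and 72.3 CPM in the Ucp1 and 41.7 and 38.7 CPM in the Myf5 line. Between the brown adipocytes of the lines DESeq2 called 6 receptors and 1477 genes. With edgeR 10 receptors and 2213 genes had an unadjusted p under 0.05. After adjustment edgeR called no receptor here either, against 1.32% of all genes (1.29% higher and 0.0236% lower in the Ucp1 line). The count was 2 without Ucp1 GFP-positive myoepithelial replicate 1 or 2, and 1 without Ucp1 brown adipocyte replicate 2. In 9 receptors both Ucp1 libraries lay above both Myf5 libraries and in 16 below, against 31.3% and 28.3% of all genes. Besides Ppara and the NR4A genes, the separated ones included Nr1d1, Thra, Esrra and Rxra, each lower in Ucp1 brown adipocytes, and Nr2f2, Rarg and Vdr, each higher in them. The immediate-early list had 3 of 11 members called higher in Ucp1 brown adipocytes, Egr1, Egr2 and Zfp36, of which the growth factor-induced Egr1 averaged 3553 ± 1260 CPM, against 278 ± 31.3 CPM in Myf5 brown adipocytes (n = 2 each, adjusted p = 0.0288). For all 7 endothelial markers both Ucp1 libraries lay above both Myf5 libraries, but none passed the test.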

How the data were processed

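RNA of sorted cells was sequenced in 12 libraries with a low-input kit (SMART-Seq v4, per the labels' protocols). The deposited values are raw counts of reads per gene, made by the authors. TopHat, HTSeq, DESeq2 and mm10 are named, per the submitters' processing notes, and their versions and the strand setting are not stated. Members and gene lists were chosen with earlier results of these data known. Every member could be named, and at most 4 called genes of smallest adjusted p per list and comparison. Where no p is attributed to another tool, adjusted p-values are from edgeR 4.0.16 (quasi-likelihood test, R 4.3.3), fitted to all 12 libraries with TMM factors, filterByExpr at a minimum count of 10 and Benjamini-Hochberg adjustment over 16953 genes, with a threshold of 0.05. Fold changes and SE are on the log2 scale. Each SE was derived as the absolute log2 fold change over the square root of the F statistic of the test. For groups with few or no counts both depend on the prior count. The script was tested on simulated data. CPM per kb used exon lengths from GENCODE M21, and bounds and floors use 3 counts (95% confidence). Promoters came from RefSeq, and protein sequences were not used here. Alternatives were RLE and upper-quartile factors, no filter, DESeq2 1.42.0, limma-voom (limma 3.58.1), only the groups compared, exclusions of libraries and genes, and a replicate block. Figures were drawn with matplotlib 3.10.9.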

Additional observations from a re-analysis of the deposited data

Results flagged for a closer look

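For 3 receptors the effect of the GFP label differed between the Ucp1 and the Myf5 line, by the edgeR test of that difference. This is 8.11% of the 37 tested receptors, against 11% of all genes. The adjusted p was 0.00488 for Esr1, 0.00989 for Rarb and 0.00438 for Thrb. Each had no count in either Ucp1 GFP-positive library, and those libraries had the fewest detected genes. Esr1 and Thrb were higher in both Myf5 GFP-positive libraries than in both Myf5 GFP-negative ones, and Rarb was not. The Rarb call was lost without either Myf5 GFP-negative library (adjusted p up to 0.0585). No group had the 4 libraries needed to look for a library apart from the others.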

How the results depend on the processing

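Each of the 41 calls of a receptor in a comparison was refitted under 20 to 23 alternatives, 868 refits in total. Some of these left out a library of neither group compared. Of the refits 714 kept the call, 154 lost it and 0 reversed it, and 8 calls were kept under every alternative run on them. Counts of called receptors moved by more than 1.5 times as follows. With DESeq2 the count was 20 for GFP-negative myoepithelial cells over brown adipocytes, 19 for Myf5 GFP-positive cells over brown adipocytes, 8 for the label difference, 2 for the Myf5 label and 6 for the brown adipocytes of the 2 lines. With limma-voom it was 9 for the Ucp1 label, 14 for Myf5 GFP-positive cells over brown adipocytes, 5 for the label difference and 2 for the Myf5 label. With only the groups compared it was 22 for GFP-negative cells over brown adipocytes, 15 in the Myf5 and 0 in the Ucp1 line for GFP-positive cells over brown adipocytes, and 2 for the brown adipocytes of the 2 lines. Without the Ucp1 GFP-positive libraries it was 18 for Myf5 GFP-positive cells over brown adipocytes and 2 for the brown adipocytes. Over all genes the calls also moved, for the Ucp1 label to 4320 with DESeq2 and 5146 with limma-voom, against 2423, for GFP-negative cells over brown adipocytes to 8226 with only the groups compared, 6886 without the Ucp1 GFP-positive libraries and 722 within the Ucp1 line only, against 4515, for Myf5 GFP-positive cells over brown adipocytes to 5799 with DESeq2 and 6199 without the Ucp1 GFP-positive libraries, against 3350, for the label difference to 3205 with DESeq2 and 1187 with only the groups compared, against 1861, for the brown adipocytes of the lines to between 42 with limma-voom and 1477 with DESeq2, against 223, and for the Myf5 label to 232 without the Ucp1 GFP-positive libraries, against 0. With only the groups compared no gene was called between Ucp1 GFP-positive cells and brown adipocytes, against 4717. Within the Ucp1 line only, a choice made after seeing the data, it was 0 for GFP-negative cells over brown adipocytes. The cause was not tested. Leaving out 1 library at a time gave 5 to 19 calls for GFP-negative cells over brown adipocytes, 3 to 18 in the Myf5 and 5 to 15 in the Ucp1 line for GFP-positive cells over brown adipocytes, 3 to 7 for the Ucp1 label, 2 to 7 for the label difference, 0 to 2 for the brown adipocytes, and 0 for the Myf5 label and for the GFP-negative cells of the 2 lines. RLE factors shifted the median of all genes by 0.17 (log2) for the Ucp1 label and -0.24 for GFP-negative cells over brown adipocytes. Replicate numbers were tried as a block within each line. Same-numbered GFP-positive and GFP-negative libraries deviated together at r = 0.0686 in the Ucp1 and 0.472 in the Myf5 line, and the labels name no shared animal, so whether same-numbered libraries are paired is not known. The block gave 3 calls for the Ucp1 label, 10 for GFP-negative cells over brown adipocytes and 7 for Myf5 GFP-positive cells over brown adipocytes, and over all genes 1251, 2912 and 2032 in the same order, 2774 for Ucp1 GFP-positive cells over brown adipocytes, 957 for the label difference and 147 for the brown adipocytes of the lines. Detection limits the Ucp1 GFP-positive libraries well above the lowest levels, since among genes whose Ucp1 GFP-negative mean lay between 10 and 20 CPM 35.4% had under 3 counts in each of them, taken singly, and 13.7% had no count in both, and between 20 and 50 CPM 15.8% and 15.7% had under 3 counts in replicates 1 and 2.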
